A study of Arabidopsis thaliana with 18 samples.

Results

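The response of wild-type Arabidopsis thaliana seedlings (ecotype Col-0) to aluminium was measured as the difference in poly(A) RNA between 3 libraries grown with 1.5 mM AlCl3 and 3 libraries grown without it. These 6 wild-type libraries were chosen by their labels from 18, the other 12 coming from the mutants als3-1 and sog1-7 under the same AlCl3 concentrations. Seedlings of every group were sown on soaked gel at pH 4.2, kept at 20 °C in continuous light and harvested whole 84 h after sowing, so wild type without AlCl3 met the same acidity as wild type with it. The study was built to search for targets of the transcription factor SOG1 in the DNA damage response that aluminium sets off in roots, and wild type is its reference genotype. Of 32833 genes in the deposited counts, 21650 were abundant enough to be tested.

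At acid pH aluminium dissolves as a cation that stops root growth. Arabidopsis roots answer through the zinc-finger transcription factor STOP1, whose targets export malate and citrate that chelate the metal at the root surface, while the ABC-type proteins ALS1, ALS3 and STAR1 move or sequester it. Aluminium also binds phosphate, stiffens cell walls and, in the model the study works with, triggers a DNA damage response through SOG1 that ends cell division in the root tip.

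The wild-type libraries held 25.56 to 36.09 counted reads in units of 1e6, and 3 counts in a library corresponded to 0.083 to 0.119 counts per 1e6 counts (CPM). Levels below are CPM scaled by library (TMM), given in the order of replicates 2, 3 and 4 as the labels number them, and changes are log2 fold changes of 1.5 mM over 0 mM ± SE, with 3 libraries against 3. Ribosomal RNA took 2.12% to 3.69% of the reads at 0 mM and 2.33% to 4.09% at 1.5 mM. The 1.5 mM library of replicate 2 stood apart: over genes with at least 20 counts, its chi-square per degree of freedom was 103.2 against replicate 3 and 130.3 against replicate 4, where replicates 3 and 4 differed by 19.04. Its summed photosynthesis markers were 31900 CPM against 53300 to 76000 CPM in the other 5 libraries. Whether the samples of a group were separate cultures is not stated in the labels, so the p-values speak only of the spread among these samples, part or all of which may be technical. RNA came from whole seedlings, in which fewer cells of a type and less RNA per cell cannot be told apart. Both organ systems were present, with summed root markers of 7330 to 10400 CPM, and no photosynthesis or root marker stood at 0.

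Aluminium changed 408 of the 21650 genes (edgeR's quasi-likelihood test, Benjamini-Hochberg adjusted p under 0.05), which is 1.88% of those tested. Of these, 194 rose (0.896% of genes tested) and 214 fell (0.988%), and 293 moved at least 2-fold. The 3 libraries at 1.5 mM did not overlap the 3 at 0 mM in any of the 408. The same libraries chose these genes, so this adds no support to the calls. Over all genes tested the groups did not overlap in 9.15% (higher) and 7.81% (lower). At an unadjusted p under 0.05 the counts were 1035 higher (4.78%) and 1189 lower (5.49%). The median log2 change over all genes tested was 0. Each of the 6 libraries was left out in turn, and 160 of the 408 calls, 76 rises and 84 falls, held in all 6 of these fits, while 47 held in none. Without the 1.5 mM library of replicate 2 the count was 273, with 120 rises and 153 falls. The count was lowest without the 1.5 mM library of replicate 4, at 212, and was 227 without the 0 mM library of replicate 3 and 243 without that of replicate 4. The same numbers in the 2 concentrations mark samples that deviated together, a pairing that the main fit did not use. With replicate number as a block over all 18 libraries 372 genes were called higher (1.72%) and 431 lower (1.99%). That block fitted to wild-type libraries alone called 65 genes.

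**Figure D1:**
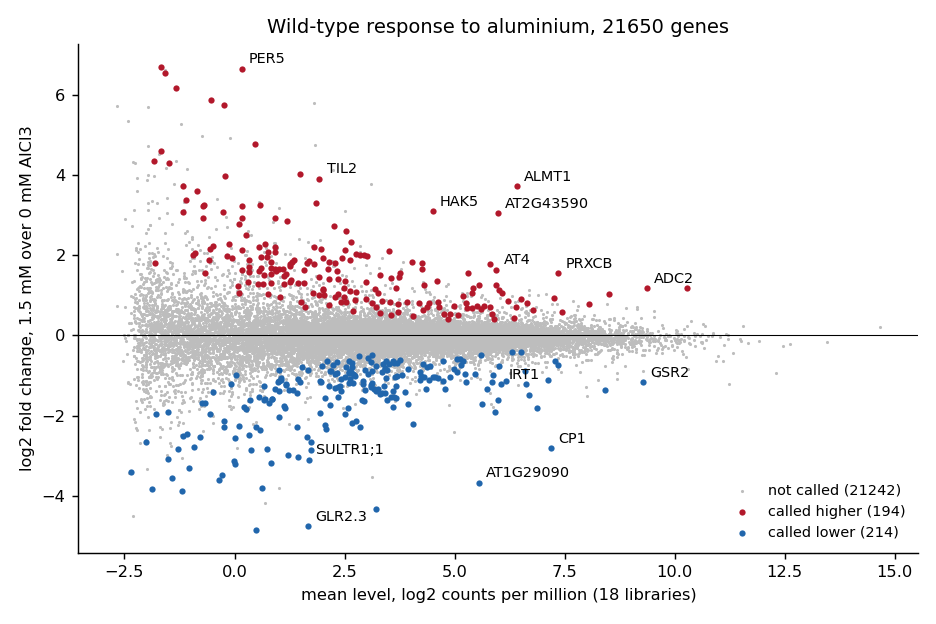
Log2 fold change of 1.5 mM over 0 mM AlCl3 in wild type (y axis) against mean level in log2 CPM over the 18 libraries (x axis), 1 point a gene tested. The 194 rises (red) and 214 falls (blue) lie at low and high levels alike, with ALMT1 at 3.72 and GLR2.3 at -4.76.

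The clearest rise among genes of aluminium resistance was that of ALMT1 (AT1G08430, chromosome 1, 2658602 to 2661310, plus strand), the malate channel that releases organic acid from the root. ALMT1 had 10.8, 7.52 and 11.9 CPM at 0 mM and 144, 137 and 116 CPM at 1.5 mM. Its lowest treated library was far above its highest untreated one, and it rose by 3.72 ± 0.20 (adjusted p = 1.1e-07). MATE (AT1G51340, listed as DTX42), the citrate exporter that works beside it, had 4.93, 4.10 and 3.53 CPM at 0 mM and 21.7, 15.1 and 16.7 CPM at 1.5 mM. It rose by 2.09 ± 0.24 (adjusted p = 0.000205). Genes of glutamate and GABA metabolism that are known STOP1 targets moved less. GDH1, a glutamate dehydrogenase, had 35.2, 31.0 and 36.3 CPM against 76.4, 72.3 and 76.1 CPM and rose by 1.13 ± 0.14 (adjusted p = 0.000345). POP2, the GABA transaminase, rose by 0.59 ± 0.09 from 133 to 145 CPM to 197 to 221 CPM (adjusted p = 0.00207). The changes of these 4 genes held in all 6 leave-one-out fits.

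The aluminium resistance list, which does not hold MATE, had 24 tested members, with a median log2 change of 0.19. Of these 4 rose (ALMT1, GDH1, POP2 and CAMTA2) and 2 fell (XTH31 and LPR1), against 0.896% and 0.988% of all genes tested. Most genes of aluminium transport and its regulation did not pass. STOP1 differed by -0.10 ± 0.11 (adjusted p = 0.908), ALS1 by 0.13 ± 0.09 (adjusted p = 0.729) and STAR1 by 0.19 ± 0.15 (adjusted p = 0.827). STOP2 differed by 0.05 ± 0.19 and the tonoplast dicarboxylate transporter TDT by 0.33 ± 0.31, also without passing. ALS3 had 3.18, 3.59 and 3.07 CPM at 0 mM and 3.93, 7.63 and 7.87 CPM at 1.5 mM. Its treated libraries were all above the untreated ones, with replicate 2 the nearest to them. The difference of 0.98 ± 0.28 did not pass (adjusted p = 0.101), but it passed with the replicate block (adjusted p = 0.00375) and without the 1.5 mM library of replicate 2 (adjusted p = 0.0248). The call of CAMTA2, a calmodulin-binding transcription activator (0.41 ± 0.10, adjusted p = 0.0414), held in none of the 6 leave-one-out fits (adjusted p = 0.0893 to 0.179). XTH31, a xyloglucan-modifying enzyme of the wall, had 355, 492 and 512 CPM against 151, 219 and 163 CPM and fell by 1.35 ± 0.32 (adjusted p = 0.0397). That call held only without the 0 mM library of replicate 2 (adjusted p = 0.0418), and was 0.0591 to 0.161 without any other. LPR1, a ferroxidase of the root response to low phosphate, fell by 0.92 ± 0.19 (adjusted p = 0.0165). It held without the replicate 2 library of either concentration and not without the others (adjusted p = 0.0674 to 0.082).

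**Figure D2:**
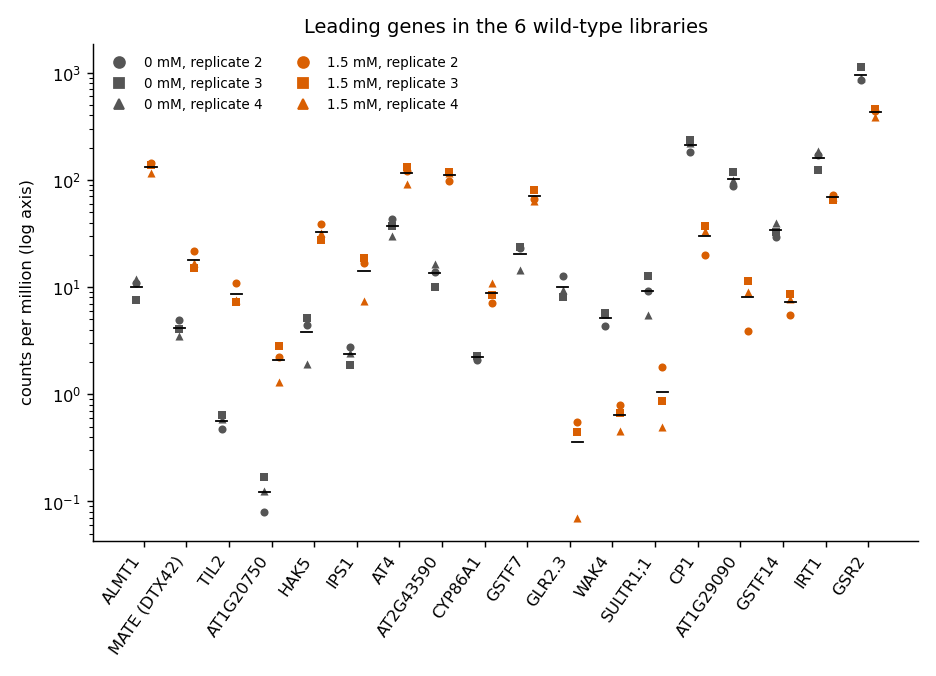
CPM on a log axis of 18 genes (x axis) in the 6 wild-type libraries, grey at 0 mM and orange at 1.5 mM AlCl3, with a marker shape for each replicate and a bar at the mean of 3. The groups do not overlap in any gene shown, and ALMT1 stands at 7.52 to 11.9 CPM without and 116 to 144 CPM with AlCl3.

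PGIP1, a polygalacturonase inhibitor of the cell wall and a known STOP1 target, could not be tested in the counts, where it stood at no more than 1 read in every wild-type library. It is a case of 293 genes with at most 1 count in each wild-type library but a mean of at least 1 FPKM (fragments per kilobase of transcript, scaled to library size) in the deposited FPKM values. All 293 overlap another annotated gene and 282 of them overlap one on the opposite strand. Of the 408 called genes 68 overlap another annotated gene. Among them are GDH1, POP2, LPR1, IREG2, SKOR, NAC042, AT1G26250, YUC7, UGT73B4 and PILS5. The counts of the 68 are uncertain because the strand setting of the counting is not given in the sources used here. PGIP1 (AT5G06860, chromosome 5, 2132350 to 2133587, plus strand) lies inside AT5G06865 (2132197 to 2133746, minus strand). In FPKM it had 26.6, 23.2 and 32.4 at 0 mM and 77.2, 98.0 and 111 at 1.5 mM, with no overlap of the groups. On the log2(FPKM + 0.1) scale it was 1.8 ± 0.27 higher (limma, adjusted p = 0.00281), in a test that called 0.936% of 20094 genes. Its neighbour in the same family, PGIP2, had 8.11, 9.97 and 10.1 CPM against 13.6, 16.1 and 19.1 CPM (0.79 ± 0.21, adjusted p = 0.0707).

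A potassium carrier and a sulfate carrier were among the largest changes. HAK5 (AT4G13420, chromosome 4, 7796782 to 7802251, minus strand), the high-affinity potassium uptake carrier of roots, had 4.41, 5.14 and 1.92 CPM at 0 mM and 38.5, 27.6 and 32.1 CPM at 1.5 mM. It rose by 3.1 ± 0.33 (adjusted p = 0.000136). SULTR1;1, the high-affinity sulfate carrier of the root surface, went the other way, from 9.22, 12.8 and 5.48 CPM to 1.8, 0.86 and 0.49 CPM. It fell by 3.1 ± 0.41 (adjusted p = 0.000713), and both calls held in all 6 leave-one-out fits. Over all genes tested 0.896% rose and 0.988% fell. Of the 14 tested genes of the potassium and nitrogen list 2 rose and 2 fell, and of the 16 of the sulfur list 1 fell. The other rise was NIA1, a nitrate reductase, with 1110, 594 and 771 CPM against 1170, 2090 and 2390 CPM (1.19 ± 0.27, adjusted p = 0.0303). It held without the replicate 2 library of either concentration and not without the others (adjusted p = 0.099 to 0.162). SKOR, which loads potassium into the xylem, fell by 1.43 ± 0.26 (adjusted p = 0.00809, and 0.0523 without the 1.5 mM library of replicate 4). The ammonium transporter AMT1;3 fell by 1.72 ± 0.33 (adjusted p = 0.0109), and its call ended without the 1.5 mM libraries of replicates 2 and 4 or the 0 mM library of replicate 3 (adjusted p = 0.0582 to 0.0633).

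Other carriers moved in both directions; those in this paragraph were picked after their values were seen, except GSR2. BOR1, which exports borate into the xylem, had 96.1, 110 and 124 CPM against 50.6, 49.6 and 49.0 CPM and fell by 1.15 ± 0.15 (adjusted p = 0.000493). HMA3, a gene of the heavy-metal pump family, fell by 1.21 ± 0.22 (adjusted p = 0.00809). GSR2, a cytosolic glutamine synthetase, had 851, 1140 and 890 CPM at 0 mM and 435, 454 and 390 CPM at 1.5 mM. It fell by 1.17 ± 0.13 (adjusted p = 0.000205). The manganese carrier MTP11 rose by 0.73 ± 0.12 (adjusted p = 0.0033) and the vacuolar metal exporter NRAMP3 by 0.82 ± 0.11 (adjusted p = 0.000599). All 5 calls held in each leave-one-out fit.

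Most genes of phosphate starvation had positive changes, but few passed. Their products include non-coding RNAs that sequester the microRNA miR399, SPX proteins that sense phosphate, and enzymes that swap phospholipids for galactolipids. Of 31 tested members 2 rose and none fell, against 0.896% and 0.988% of all genes tested. A positive change was seen in 24, and the median was 0.63. IPS1 (AT3G09922), one of the non-coding RNAs, had 2.78, 1.88 and 2.42 CPM at 0 mM and 16.7, 18.7 and 7.35 CPM at 1.5 mM, and rose by 2.59 ± 0.45 (adjusted p = 0.00567). AT4 (AT5G03545), its relative, had 43.5, 37.5 and 29.8 CPM against 121, 133 and 90.8 CPM and rose by 1.64 ± 0.26 (adjusted p = 0.00273). In both the treated library of replicate 4 was the lowest of its group, and both calls held in all 6 leave-one-out fits. SPX1 had 39.6, 41.3 and 55.8 CPM against 72.0, 113 and 113 CPM (1.13 ± 0.29, adjusted p = 0.0634), and SPX3 differed by 1.31 ± 0.46 (adjusted p = 0.238). In 16 of the 31 all treated libraries lay above all untreated ones, as they did in 9.15% of all genes tested. Without the 1.5 mM library of replicate 2, 4 members were called higher, of 120 higher over all genes. DESeq2 called 6 higher, of 342 higher over all genes. The replicate block called 14 over all libraries, where it called 1.72% of all genes higher, and 1 on wild-type libraries alone. SPX1 passed in the first of these block fits (adjusted p = 0.00106) and not in the second (adjusted p = 0.0632). A member of the PHO1 family, PHO1-H2, fell by 2.13 ± 0.20 from 8.76 to 12.4 CPM to 1.99 to 2.95 CPM (adjusted p = 8.48e-05).

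The promoter element read by the phosphate-response factor PHR1, GNATATNC, was searched in the 250 bases before each annotated start, on both strands, where it reads the same on each. It was found in 7 of 31 promoters of the phosphate list (22.6%), in 1173 of 21637 promoters of tested genes (5.42%), in 6.7% of the genes that rose and in 4.21% of those that fell. The promoters of AT4 and SPX3 are shown because AT4 passed the test and SPX3 did not, although both hold the element (capitals; RefSeq TAIR10.1, 5′ to 3′ on the gene's strand, AT4 at chr5:894332-894581 on the plus strand and SPX3 at chr2:18606160-18606409 on the plus strand). AT4 holds 1 copy that begins 26 bases before the start, and SPX3 holds 2 that begin 213 and 90 bases before it. No copy was found in the window of IPS1. These promoters, and those shown further on, were picked after the values were seen.

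AT4: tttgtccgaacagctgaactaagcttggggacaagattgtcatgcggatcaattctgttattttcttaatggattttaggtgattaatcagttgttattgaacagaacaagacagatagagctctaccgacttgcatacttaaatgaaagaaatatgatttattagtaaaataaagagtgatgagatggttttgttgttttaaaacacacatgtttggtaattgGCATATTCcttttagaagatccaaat
SPX3: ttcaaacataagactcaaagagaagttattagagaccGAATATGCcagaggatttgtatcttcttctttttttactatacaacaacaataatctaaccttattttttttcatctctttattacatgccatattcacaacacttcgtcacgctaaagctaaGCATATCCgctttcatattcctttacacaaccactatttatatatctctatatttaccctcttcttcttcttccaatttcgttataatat

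Iron genes split into a part that fell together and a part that 1 untreated library set. Roots acquire iron with the reductase FRO2 and the carrier IRT1 under the transcription factor FIT1, while the bHLH factors of subgroup Ib and the BTS ubiquitin ligase report the iron status of the whole plant. Of 24 tested members of the iron list none rose and 4 fell, against 0.896% and 0.988% of all genes tested. The list's median was -0.09. IRT1 (AT4G19690, chromosome 4, 10707344 to 10709015, plus strand) had 172, 124 and 187 CPM at 0 mM and 73.0, 65.1 and 69.8 CPM at 1.5 mM. It fell by 1.22 ± 0.18 (adjusted p = 0.00181), and IREG2, which moves metals into the vacuole, fell by 1.31 ± 0.21 from 5.61 to 9.10 CPM to 2.76 to 3.14 CPM (adjusted p = 0.00288). These 2 calls held in all leave-one-out fits. FRO2 had 168, 108 and 143 CPM against 77.8, 56.7 and 77.8 CPM and fell by 0.98 ± 0.22 (adjusted p = 0.0341). Its call held only without the 0 mM library of replicate 3 (adjusted p = 0.0325, and 0.0705 to 0.154 without any other). FIT1 had 21.2, 22.3 and 17.1 CPM against 9.15, 8.19 and 5.18 CPM and fell by 1.43 ± 0.32 (adjusted p = 0.0303), a call that held in no leave-one-out fit (adjusted p = 0.0518 to 0.15). A factor outside the list, bHLH11, known as a repressor of iron uptake and named after its values were seen, fell by 2.36 ± 0.41 (adjusted p = 0.00614).

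The untreated library of replicate 4 lay far below the other 5 in the iron-status genes. BHLH38 had 144, 222 and 6.17 CPM at 0 mM and 223, 214 and 157 CPM at 1.5 mM, and BHLH100 had 303, 416 and 6.91 CPM against 492, 454 and 360 CPM. BTS followed with 748, 967 and 139 CPM against 1170, 959 and 903 CPM. The iron storage genes were highest in that same library. FER1, a plastid ferritin, had 43.8, 42.4 and 92.7 CPM at 0 mM and 8.96, 15.9 and 29.7 CPM at 1.5 mM. Within each replicate number FER1 was lower with AlCl3, and its difference of -1.72 ± 0.48 did not pass (adjusted p = 0.0988). It passed with the replicate block over all libraries (adjusted p = 0.004) and in DESeq2 without a block (adjusted p = 0.00979), and not with the block on wild-type libraries alone (adjusted p = 0.0602). Seed storage transcripts were also lowest in that library, at a sum of 2.48 CPM against 12.8 to 35.3 CPM in the other 5, and their part in these values was not tested. BHLH38 did not pass in either fit (0.67 ± 0.90, adjusted p = 0.933, and 0.392 with the block).

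**Figure D3:**
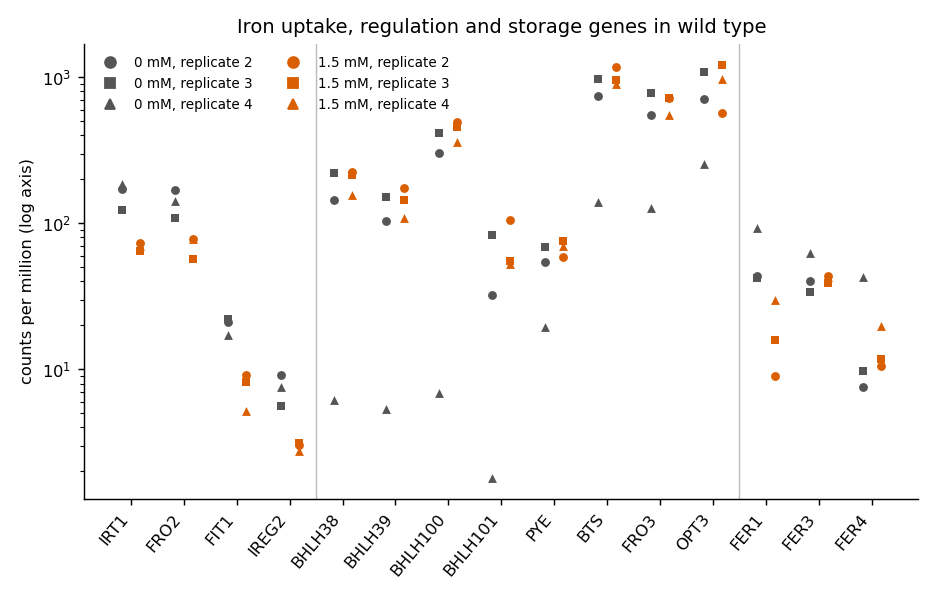
CPM on a log axis of genes of iron uptake, regulation and storage (x axis) in the 6 wild-type libraries, grey at 0 mM and orange at 1.5 mM AlCl3, with a marker shape for each replicate. IRT1, FRO2, FIT1 and IREG2 are lower in all 3 treated libraries, while BHLH38, BHLH39, BHLH100, BHLH101 and BTS are low in the untreated library of replicate 4 alone.

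Few DNA damage genes passed, although most had positive changes. Of 34 tested members 3 rose and none fell, against 0.896% and 0.988% of all genes tested. A positive change was seen in 28, and the median was 0.23. At an unadjusted p under 0.05, 10 were higher and none lower, against 4.78% and 5.49% of all genes tested. TIL2 (AT2G27120, chromosome 2, 11581214 to 11594397, plus strand), a catalytic subunit of DNA polymerase epsilon, had 0.477, 0.638 and 0.589 CPM at 0 mM and 11, 7.26 and 7.59 CPM at 1.5 mM. It rose by 3.91 ± 0.32 (adjusted p = 1.48e-05). ERF114, an ethylene response factor close to ERF115, had 0.119, 0.134 and 0 CPM against 0.857, 0.711 and 0.56 CPM and rose by 3.08 ± 0.54 (adjusted p = 0.00598), and both calls held in all leave-one-out fits. ERF115, the stem cell factor of the series' title, had 3 counts over the untreated libraries and 32 over the treated ones, a ratio of 10.2 with a 95% counting interval of 3.18 to 51.9. Its call (adjusted p = 0.0287) held in none of the leave-one-out fits (adjusted p = 0.0571 to 0.126). The cell cycle inhibitor SMR7 had 0.716, 0.369 and 0.31 CPM against 2.1, 1.91 and 1.22 CPM (1.93 ± 0.50, adjusted p = 0.0637), and it passed in DESeq2 (adjusted p = 0.00537). DESeq2 called 5 members of the list higher, of 342 higher over all genes. The repair gene BRCA1 did not pass (0.75 ± 0.23, adjusted p = 0.143), and SOG1 differed by -0.03 ± 0.13 (adjusted p = 0.991). SMR5, another inhibitor, stood at 0 counts and was not tested.

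Outside the list, AT1G20750, annotated as a RAD3-like DNA helicase, went from 0.0795, 0.168 and 0.124 CPM to 2.21, 2.81 and 1.29 CPM. It rose by 4.03 ± 0.62 (adjusted p = 0.00262). This was the largest rise among named genes with a mean log2 CPM of at least 1 over all 18 libraries. Its mean there was 1.49 with the mutants included, while its wild-type means were 0.124 CPM at 0 mM (11 counts) and 2.1 CPM at 1.5 mM. PER5, below that level at 0.16, rose by 6.65 ± 0.80. ABCA10, a member of the ABC transporters, rose by 2.85 ± 0.35 (adjusted p = 0.000345). In sog1-7, whose libraries are separate, AT1G20750 differed by 0.42 ± 0.70 and ABCA10 by 0.74, against 5.74 and 3.84 in als3-1. TIL2, from the list, did not share this pattern, and rose by 3.69 ± 0.31 in sog1-7 and by 1.11 ± 0.28 in als3-1. The sog1-7 differences from wild type, -3.60 ± 1.00 for AT1G20750 and -2.11 ± 0.50 for ABCA10, did not pass over all genes (both adjusted p = 1). The SOG1 element, CTT and AAG separated by 7 bases, was found before 5 of 34 genes of the DNA damage list (14.7%), before 9.22% of tested genes, before 5.67% of the genes that rose and before 7.94% of those that fell. None of the 20 tested genes of G2 and M phase passed edgeR's test, none reached an unadjusted p under 0.05, DESeq2 called none, and their median was 0.06.

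Several suberin genes rose. Suberin is the lipid polymer that seals the root endodermis, made by fatty acid hydroxylases, reductases and acyltransferases and exported by ABC transporters. Of 19 tested members 6 rose and none fell, against 0.896% and 0.988% of all genes tested. A positive change was seen in 17, and the median was 0.68. CYP86A1, a fatty acid hydroxylase of the pathway, had 2.11, 2.28 and 2.29 CPM at 0 mM and 7.11, 8.38 and 10.8 CPM at 1.5 mM, and rose by 1.97 ± 0.35 (adjusted p = 0.00687). The reductase FAR5 had 1.47, 1.11 and 1.33 CPM against 5.70, 3.44 and 4.16 CPM and rose by 1.77 ± 0.23 (adjusted p = 0.000683). These 2 held in all leave-one-out fits. The hydroxylase CYP86B1 rose by 1.85 ± 0.35 (adjusted p = 0.00952, and 0.0595 without the 0 mM library of replicate 4). The acyltransferase GPAT5 rose by 1.96 ± 0.38 (adjusted p = 0.0116), the transporter ABCG6 by 2.16 ± 0.44 (adjusted p = 0.0164) and the regulator MYB93 by 1.31 ± 0.29 (adjusted p = 0.027). The count of rises was 2 without the 0 mM library of replicate 4, where GPAT5 had an adjusted p of 0.0704, ABCG6 of 0.0962 and MYB93 of 0.138. It was 3 without the 0 mM library of replicate 3, where they had 0.0582, 0.105 and 0.124. ABCG6 also ended without the 1.5 mM library of replicate 4 (adjusted p = 0.0809) and MYB93 without that of replicate 2 (adjusted p = 0.122). Lipid-modifying genes outside the list also stood among the 20 largest rises, the GDSL-type esterases AT5G37690 (2.73 ± 0.30), AT1G74460 (2.13 ± 0.29) and AT2G23540 (2.03 ± 0.31) and the WSD1-like acyltransferase AT5G12420 (2.34 ± 0.25). Their families as a whole did not go one way: of 75 tested GDSL or SGNH esterases 4 rose and 3 fell, with a median of -0.06, and of 5 WSD1-like genes 1 rose and 1 fell, with a median of -0.41. The 9 Casparian strip genes, which form the other endodermal barrier, all had negative changes with a median of -0.27, and none passed.

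**Figure D4:**
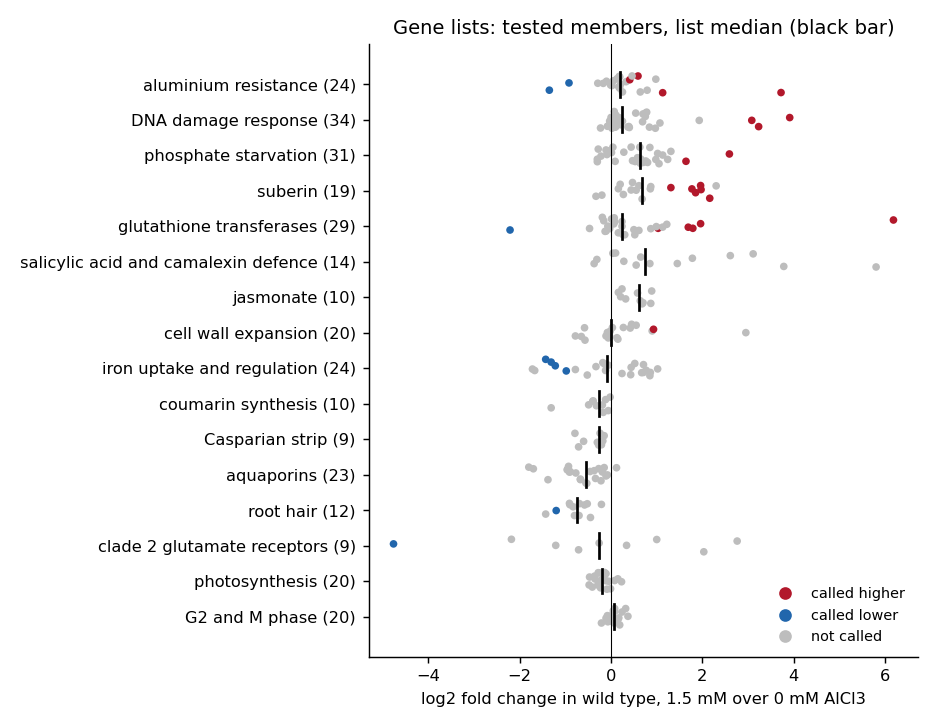
Log2 fold change in wild type (x axis) of every tested member of 16 gene lists (y axis, number tested in brackets), red where called higher, blue where called lower and grey where not called, with a black bar at the list's median. Medians are 0.68 for suberin, 0.63 for phosphate starvation and -0.75 for root hairs, against 0 over all genes tested.

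Glutathione transferases conjugate glutathione to reactive compounds, and members of the family changed in both directions. Of 29 tested members 5 rose and 1 fell, against 0.896% and 0.988% of all genes tested, with a median of 0.24. GSTF7 (AT1G02920, chromosome 1) had 22.9, 23.9 and 14.3 CPM at 0 mM and 66.5, 80.7 and 63.5 CPM at 1.5 mM and rose by 1.79 ± 0.22 (adjusted p = 0.00037), a call that held in all leave-one-out fits. Its tandem neighbour GSTF6 had 138, 181 and 160 CPM against 284, 395 and 302 CPM and rose by 1.03 ± 0.25 (adjusted p = 0.043). The pair is close in sequence and reads may be split between them. GSTF6, GSTU4 and GSTU11 held in none of the leave-one-out fits, with adjusted p of 0.0618 to 0.171, 0.0623 to 0.198 and 0.0812 to 0.146. So 1 or 2 rises were left in each of these fits. GSTF3 (adjusted p = 0.0288) held only without the replicate 2 library of either concentration (0.0627 to 0.154 without any other). GSTU11 had 0 counts over the untreated libraries and 23 over the treated ones, at least 7.31-fold higher against a floor of 3 counts over the group, and it did not pass with the replicate block (adjusted p = 0.0604). GSTF14 fell from 29.4, 32.7 and 39.2 CPM to 5.50, 8.68 and 7.80 CPM, by 2.21 ± 0.27 (adjusted p = 0.000344). A family member outside the list, ATGSTF13 (AT3G62760), fell by 3.19 ± 0.32 (adjusted p = 0.000135).

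Class III peroxidases, secreted enzymes that cross-link or loosen the cell wall, were the annotated family with the most calls among those counted, and these families were picked after the calls were seen. Of 56 tested genes described as peroxidase superfamily proteins 7 rose and 7 fell, 25% against 1.88% of all genes tested, with a median of -0.21. The counts were 4 and 4 without the replicate 4 library of either concentration, 5 and 4 without the 1.5 mM library of replicate 2 and 3 and 6 without the 0 mM library of replicate 3. PER5 had 1 count over the untreated libraries and 134 over the treated ones, a ratio of 128 with a counting interval of 22.5 to 5080. PRXCB (AT3G49120, chromosome 3, 18207651 to 18210333), described separately in the annotation, had 45.2, 57.0 and 68.3 CPM against 169, 164 and 169 CPM and rose by 1.56 ± 0.20 (adjusted p = 0.000614). PER65 rose by 2.09 ± 0.29 and PER20 by 1.88 ± 0.32. PER69 had 129, 145 and 168 CPM against 39.0, 64.9 and 53.9 CPM and fell by 1.48 ± 0.23 (adjusted p = 0.00231), PER27 fell by 1.17 ± 0.19 and PER21 by 1.12 ± 0.21. All of these held in each leave-one-out fit. The neighbours PER22 and PER23 on chromosome 2 moved apart, PER22 falling by 0.64 ± 0.11 (adjusted p = 0.00416) and PER23 rising by 0.80 ± 0.20 (adjusted p = 0.0493, and up to 0.27 without 1 library, holding in 1 of 6 fits). Laccases, which also polymerise wall phenolics, split likewise, with LAC5 rising by 1.78 ± 0.30 and LAC7 falling by 1.62 ± 0.22 among 13 tested.

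The core of the element bound by WRKY factors, the W-box TTGAC, was found on either strand of the 250-base window before 117 of the 194 genes that rose (60.3%), before 114 of the 214 that fell (53.3%) and before 9775 of 21637 tested genes (45.2%). Of 60 tested genes described as WRKY proteins 4 rose and 2 fell (10.0%, against 1.88% of all genes tested), with a median of 0.03. The rises were 2 without the 0 mM library of replicate 3 or the 1.5 mM library of replicate 4. The falls were 1 without either of these or the 1.5 mM library of replicate 2, and 3 without the 0 mM library of replicate 2. Of those whose calls held in every leave-one-out fit, WRKY18 had 31.1, 27.6 and 29.7 CPM against 80.3, 67.2 and 62.9 CPM (1.25 ± 0.22, adjusted p = 0.00718) and WRKY48 rose by 1.18 ± 0.20 (adjusted p = 0.00384), while WRKY27 fell by 0.64 ± 0.12 (adjusted p = 0.00887). The windows of GSTF7 and PRXCB are shown because these stress enzymes carry the rises described above. Capitals mark the W-box core, which appears as GTCAA where it lies on the other strand (RefSeq TAIR10.1, 5′ to 3′ on the gene's strand, GSTF7 at chr1:659981-660230 on the minus strand and PRXCB at chr3:18207401-18207650 on the plus strand). GSTF7 holds 3 cores, of which 2 lie close together at 62 and 55 bases before the start. PRXCB holds 2, at 172 and 5 bases. In both windows no marked core shares bases with another element found. The other elements searched on both strands were CACGTG (7.22% of rises, 7.29% of genes tested), GCCGCC (none of the rises, 1.97%) and TGTCTC (4.12%, 10.7%). A match is a description of these letters and not a bound site.

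GSTF7: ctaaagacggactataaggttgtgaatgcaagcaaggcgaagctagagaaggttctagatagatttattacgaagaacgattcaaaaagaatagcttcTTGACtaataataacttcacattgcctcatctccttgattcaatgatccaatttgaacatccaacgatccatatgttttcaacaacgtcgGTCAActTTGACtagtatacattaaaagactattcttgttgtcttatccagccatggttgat
PRXCB: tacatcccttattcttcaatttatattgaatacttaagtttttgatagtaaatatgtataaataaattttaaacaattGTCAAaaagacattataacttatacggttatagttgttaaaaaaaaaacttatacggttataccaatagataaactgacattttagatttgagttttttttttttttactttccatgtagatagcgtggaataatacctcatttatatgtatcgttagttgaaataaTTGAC

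Wall proteins changed in both directions, and most calls among receptor kinases were falls. WAK4, a wall-associated kinase, had 4.29, 5.71 and 5.55 CPM at 0 mM and 0.802, 0.673 and 0.455 CPM at 1.5 mM and fell by 2.99 ± 0.36 (adjusted p = 0.000344), the only call among 4 tested kinases of its list. The other 3 had positive changes, and the list's median was 1.09. Among 110 genes annotated as leucine-rich repeat protein kinases 2 rose and 9 fell (10.0%), with a median of -0.01. Over all genes tested 1.88% were called, 0.896% higher and 0.988% lower. No rise was left in 5 of the 6 leave-one-out fits, the exception being that without the 0 mM library of replicate 2, and the falls were 5 without the 1.5 mM library of replicate 4, 6 without the 1.5 mM library of replicate 3 or the 0 mM library of replicate 4, and 7 to 9 otherwise. The related kinase AT1G29740 had 4.73, 5.14 and 4.12 CPM against 0.47, 1.01 and 0.455 CPM and fell by 2.87 ± 0.28 (adjusted p = 8.48e-05), and AT2G14510 fell by 2.83 ± 0.30. Extensin-like proteins gave 3 falls and no rise among 46 tested, with a median of -0.44, but no fall was left without the 1.5 mM library of replicate 2, without that of replicate 4 or without the 0 mM library of replicate 4, and 1 was left without the 0 mM library of replicate 3. There were 5 falls without the 0 mM library of replicate 2 and 6 without the 1.5 mM library of replicate 3. Of the 3 falls, that of AT1G26250 is in a gene that overlaps another on the opposite strand, so its counts are uncertain. Hydroxyproline-rich glycoproteins gave 5 rises and no fall among 53 tested, although their median was -0.15. PELPK1, a proline-rich wall protein, had 5.6, 4.73 and 5.36 CPM against 17.3, 15.1 and 23.2 CPM and rose by 1.82 ± 0.25 (adjusted p = 0.000778), and its neighbour PELPK2 rose by 2.08 ± 0.33 (adjusted p = 0.00279). XTH24, a xyloglucan-modifying enzyme, was the only call among the 20 tested genes of cell wall expansion (0.93 ± 0.18, adjusted p = 0.0103, and 0.0553 without the 0 mM library of replicate 4).

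The largest fall among genes with a mean log2 CPM of at least 1 was that of GLR2.3 (AT2G24710, chromosome 2, 10516780 to 10520684, minus strand), a glutamate receptor-like cation channel. It had 12.6, 8.02 and 9.36 CPM at 0 mM and 0.553, 0.449 and 0.07 CPM at 1.5 mM, and fell by 4.76 ± 0.50 (adjusted p = 0.000136). Of the other 8 tested receptors of its clade none passed, and the list's median was -0.26. Over the whole list 1 rose and 3 fell with the replicate block, which called 1.72% of all genes higher and 1.99% lower. DESeq2 gave the same list counts, where it called 342 higher and 375 lower over all genes. GLR2.3 alone passed with the block on wild-type libraries alone. CP1 (AT4G36880), a cysteine protease, had 181, 237 and 219 CPM against 19.9, 37.1 and 33.7 CPM and fell by 2.81 ± 0.23 (adjusted p = 1.48e-05). A second cysteine protease, AT1G29090, had 88.0, 119 and 100 CPM against 3.87, 11.3 and 8.99 CPM and fell by 3.68 ± 0.39 (adjusted p = 0.000136), and the neighbouring AT1G29100, annotated with a heavy-metal transport domain, fell by 3.03 ± 0.44. Other large falls were those of the cadmium resistance family member PCR5 (2.66 ± 0.45), the amino acid exporter UMAMIT29 (2.53 ± 0.42), the pectin methylesterase inhibitor PMEI12 (2.23 ± 0.31) and the raffinose-family sugar synthase STS (2.18 ± 0.28). Of the 20 largest falls 16 held in all 6 leave-one-out fits. The exceptions were AT1G26250, an extensin-like protein (adjusted p = 0.0123, up to 0.0565), the gibberellin oxidase GA3OX2 (0.018, up to 0.0953), CYP710A1 (0.0308, up to 0.156) and AT4G08400 (0.018, up to 0.103). Each of these 4 calls ended in the fit without the 1.5 mM library of replicate 2, in that without the 1.5 mM library of replicate 4 and in that without the 0 mM library of replicate 4. GA3OX2 also ended without either library of replicate 3, CYP710A1 without the 1.5 mM library of replicate 3 and AT4G08400 without the 0 mM library of replicate 3. AT1G26250 (9083838 to 9085464, plus strand) overlaps AT1G26255 (9083856 to 9085651, minus strand), so its counts are uncertain. At 0 mM its means were 18.6 CPM and 96.3 FPKM, against 104 CPM and 58.2 FPKM for AT4G08400. Its mean at 1.5 mM was 5.25 FPKM.

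Among the largest rises, the chitinase AT2G43590 (chromosome 2, 18081304 to 18082776, minus strand) had 13.8, 10.1 and 16.4 CPM at 0 mM and 98.1, 119 and 117 CPM at 1.5 mM. It rose by 3.05 ± 0.19 (adjusted p = 4.79e-07). AT2G18480, a sugar transporter family member, rose by 3.31 ± 0.35 (adjusted p = 0.000136) and NAC042, a transcription factor, by 2.2 ± 0.35 (adjusted p = 0.0032). ADC2, the arginine decarboxylase of polyamine synthesis, was an abundant gene that rose, from 287, 352 and 313 CPM to 519, 817 and 823 CPM (1.18 ± 0.21, adjusted p = 0.00599). Of the 20 largest rises 18 held in all leave-one-out fits, ABCG6 and the triterpene gene THAS1 being the exceptions. THAS1 and CYP708A2, neighbours that make and oxidise thalianol in roots, rose by 2 ± 0.44 (adjusted p = 0.0274) and 1.51 ± 0.33 (adjusted p = 0.0257). Each held only without the 1.5 mM library of replicate 3 or the 0 mM library of replicate 4, and otherwise reached adjusted p of 0.0606 to 0.119 and 0.0566 to 0.135. THAS1 was highest in the treated library of replicate 2, at 17.2 CPM against 7.70 and 10.1 CPM in the other 2.

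Root hair genes had lower values in treated libraries, but only 1 passed. All 12 had negative changes with a median of -0.75, and their summed level was 978 to 1310 CPM at 0 mM and 406 to 822 CPM at 1.5 mM, lowest in replicate 4. Only PRP1, a root hair wall protein, was called (fell by 1.2 ± 0.28, adjusted p = 0.041), where 0.988% of all genes tested fell. Its call held without the 0 mM library of replicate 2 or the 1.5 mM library of replicate 3 (0.0835 to 0.192 without any other). DESeq2 called 3 members lower, of 375 lower over all genes. The replicate block called 5 lower over all libraries, where it called 1.99% of all genes lower, and none on wild-type libraries alone. In 7 of the 12 all treated libraries lay below all untreated ones, as they did in 7.81% of all genes tested. Among aquaporins, the channels for water, 22 of 23 had negative changes with a median of -0.55. None passed edgeR's test, and 12 were lower at an unadjusted p under 0.05, against 5.49% of all genes tested. DESeq2 called 5 lower, of 375 lower over all genes. The replicate block called 8 lower over all libraries, where it called 1.99% of all genes lower, and 1 on wild-type libraries alone. Their sum was 5030, 6280 and 6710 CPM at 0 mM and 2190, 5200 and 5310 CPM at 1.5 mM, lowest in the treated library of replicate 2 that stood apart, whose part in the values was not tested. AGP30, a root arabinogalactan protein, had 77.0, 91.0 and 102 CPM against 31.4, 49.0 and 27.3 CPM and fell by 1.33 ± 0.24 (adjusted p = 0.00826, and 0.0514 without the 1.5 mM library of replicate 4).

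Of the 31 lists 17 had no member called by edgeR. The 14 genes of salicylic acid and camalexin defence had a median of 0.75. At an unadjusted p under 0.05, 6 were higher and 2 lower, against 4.78% and 5.49% of all genes tested. DESeq2 called 2 higher, of 342 higher over all genes. The replicate block called 3 higher over all libraries, where it called 1.72% of all genes higher, and 2 on wild-type libraries alone. The 10 jasmonate genes all had positive changes with a median of 0.61, 2 at an unadjusted p under 0.05, none called by DESeq2 and 2 with the block. The 10 coumarin synthesis genes all had negative changes with a median of -0.26, and 1 reached an unadjusted p under 0.05. Photosynthesis genes had a median of -0.19, S phase genes 0.16, root stem cell niche genes -0.25, clock genes -0.22, heat shock genes 0.02 and abscisic acid genes 0.06. Of the 23 auxin and ethylene genes only YUC7, an auxin synthesis enzyme, was called (fell by 1.54 ± 0.35, adjusted p = 0.0303), where 0.988% of all genes tested fell. Only the fit without the 0 mM library of replicate 2 kept the call (0.0523 to 0.16 without any other). YUC7 overlaps a gene on the opposite strand, so its counts are uncertain.

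The genes that changed were spread over the 5 chromosomes, at 1.59% to 1.99% of those tested on each. Of 21633 pairs of neighbouring tested genes 25 had both members called, 19 of them in the same direction. On chromosome 1, between 5370677 and 5380239, lay 2 such pairs of uncharacterised genes, AT1G15610 with AT1G15620 and AT1G15630 with AT1G15640, which were not adjacent to each other among the genes tested. In that order they rose by 3.61 ± 0.89, 3.74 ± 0.80, 2.2 ± 0.41 and 1.65 ± 0.33. Their untreated levels were 0 to 0.868 CPM, and their calls held in 1, 2, 5 and 2 of the 6 leave-one-out fits, with adjusted p up to 0.201, 0.117, 0.0604 and 0.0806 without 1 library. The baruol synthase gene BARS1 rose by 1.33 ± 0.22 (adjusted p = 0.00414) while its neighbour CYP705A3 fell by 1.34. PXMT1, a methyltransferase, and the precursor of the microRNA miR163, which is known to target it, are also neighbours and moved apart. The MIR163 precursor had 4.57, 6.81 and 10.4 CPM at 0 mM and 3.57, 2.21 and 1.57 CPM at 1.5 mM and fell by 1.56 ± 0.29 (adjusted p = 0.00868), holding in all leave-one-out fits. PXMT1 had 0.239, 0.336 and 0.093 CPM against 0.83, 1.35 and 1.08 CPM and rose by 2.28 ± 0.54 (adjusted p = 0.0408), holding in none (adjusted p up to 0.184).

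The mutants, each with 6 libraries of its own, give the same genes in other seedlings. ALS3 encodes the ABC-type protein that als3-1 lacks and whose loss makes roots hypersensitive to aluminium, and sog1-7 is a loss-of-function allele of SOG1. In als3-1 2348 genes were called (10.8%) and in sog1-7 257 (1.19%). Of the 194 genes that rose in wild type, 185 had the same sign in als3-1, where 134 were called, and 190 in sog1-7, where 104 were called. Of the 214 that fell, 210 and 211 had the same sign, and 158 and 79 were called. The median change of the rises was 1.53 in wild type, 1.16 in als3-1 and 1.21 in sog1-7, and that of the falls was -1.26, -1.14 and -0.84. Since wild type chose these genes, a smaller value elsewhere is no sign of a weaker response.

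The responses of als3-1 and wild type differed for 87 genes (0.402% of those tested), of which 16 were among the 408, and those of sog1-7 and wild type for 1 gene (0.00462%), IRT1. ALMT1 rose by 3.72 in wild type and by 1.18 in als3-1, a difference of -2.53 ± 0.26 (adjusted p = 0.000986), against 3.74 in sog1-7. IRT1 fell by 1.22 in wild type, by 3.04 in als3-1 and by 3.08 in sog1-7. BARS1 rose by 1.33 in wild type and differed by -0.79 in als3-1, a difference of -2.12 ± 0.31 (adjusted p = 0.00589). Another 15 genes, 6 rises and 9 falls, were called in wild type and had an unadjusted p over 0.05 in both mutants, but for none of them did the response differ from wild type in a test over all genes.

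**Figure D5:**
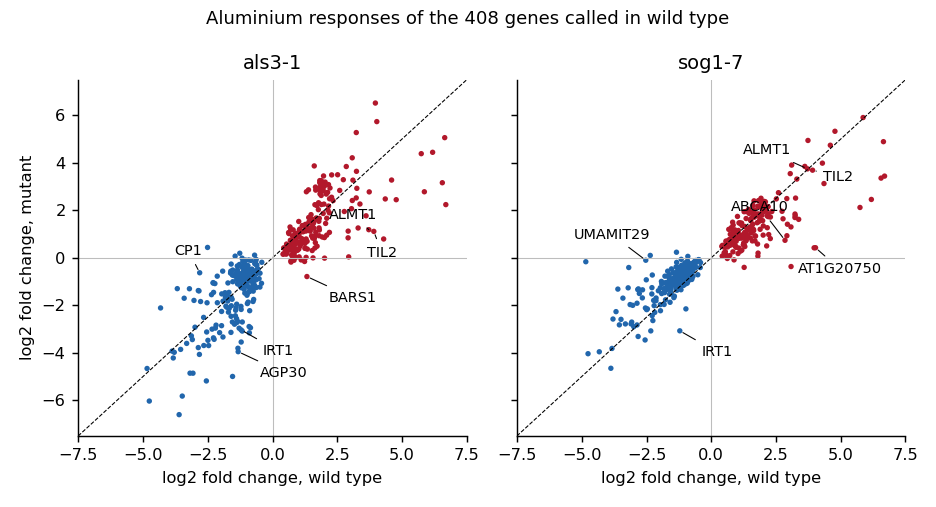
Log2 fold change in als3-1 (left) and sog1-7 (right) on the y axis against that in wild type on the x axis for the 408 genes called in wild type, red for rises and blue for falls, with a dashed line of equal change. Most points keep their sign, and ALMT1 and TIL2 lie near the line in sog1-7 and below it in als3-1.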

How the data were processed

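Samples were grouped by the genotype and AlCl3 concentration in the labels. The deposited counts are whole-number reads per gene, per the file headers, and featureCounts 2.0.0 is named in the submitters' processing notes. The notes also name STAR 2.7.3a, FastQC 0.11.7, Cufflinks 2.2.1, DESeq2 1.36.0 and build TAIR10. The deposited FPKM values are credited to Cufflinks in those notes and served as an alternative. The kit was a directional one, per the labels' protocols, and the strand setting of the counting is not given in the sources used here, so overlapping and near-identical genes are uncertain.

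All 18 libraries entered 1 edgeR 4.0.16 fit in R 4.3.3 (TMM scaling, default filterByExpr by group, robust quasi-likelihood, 1 mean per group), and p-values were Benjamini-Hochberg adjusted over the 21650 genes tested. The fit was tested on simulated data. Intervals of count ratios are exact at 95% and cover counting error only. Alternatives were DESeq2 1.42.0, limma 3.58.1 on FPKM, other scalings and filters, wild-type libraries alone, a replicate block, and leaving out each library.

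Deviations from the group means correlated between same-numbered wild-type libraries (0.24, 0.34 and 0.31 for replicates 2, 3 and 4). Every wild-type library correlated best with its own number, so the replicate block took the numbers to pair the samples. The main fit did not use this pairing, and neither do its p-values. The block over all 18 libraries also took the numbers as shared across genotypes, which these wild-type correlations do not cover.

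Genes named were the 20 largest rises and 20 largest falls among calls whose groups did not overlap and whose mean log2 CPM was 1 or more, called members of 31 gene lists, the 5 most abundant calls in each direction and a set of known genes; others were named after their values were seen. Mean log2 CPM was taken over all 18 libraries. Members and lists were chosen with earlier results of these data known. Positions and promoters come from RefSeq TAIR10.1, whose gene starts and ends matched the FPKM files for 99.95% of 32523 genes.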

Additional observations from a re-analysis of the deposited data

Results flagged for a closer look

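The aluminium responses of als3-1 and wild type differed in edgeR's test over all genes for 5 of the genes named by rule. ALMT1 rose by 3.72 in wild type and 1.18 in als3-1, a difference of -2.53 ± 0.26 (adjusted p = 0.000986). TIL2 rose by 3.91 and 1.11, a difference of -2.80 ± 0.42 (adjusted p = 0.00663). CP1 fell by 2.81 in wild type and was at -0.63 in als3-1, where it was not called (adjusted p = 0.0786), a difference of 2.18 ± 0.31 (adjusted p = 0.00478). IRT1 fell by 1.22 and 3.04, a difference of -1.82 ± 0.25 (adjusted p = 0.00398). AGP30 fell by 1.33 and 3.96, a difference of -2.63 ± 0.35 (adjusted p = 0.0035). Of the genes named after their values were seen, BARS1 (-2.12 ± 0.31, adjusted p = 0.00589) and PER27 (-1.54 ± 0.26, adjusted p = 0.0159) differed as well. Between sog1-7 and wild type, IRT1 was the only gene that differed (-1.86 ± 0.26, adjusted p = 0.0482). The comparisons with als3-1 and with sog1-7 share the wild-type libraries.

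In the FPKM values, which the count test does not use, 2 genes passed among the 293 with no more than 1 count but at least 1 FPKM in wild type, a share below the 0.936% of all 20094 genes called in that test. PGIP1 was 1.8 ± 0.27 higher with AlCl3 on the log2(FPKM + 0.1) scale (limma, adjusted p = 0.00281). AT4G22235, a defensin-like gene, had 8.71, 9.78 and 11.4 FPKM at 0 mM and 6.46, 5.91 and 4.82 FPKM at 1.5 mM, a difference of -0.79 ± 0.16 (adjusted p = 0.0281).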

How the results depend on the processing

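Against 408 calls (194 higher, 214 lower), DESeq2 gave 717 (342, 375), of which 406 were shared, and limma gave 188 (102, 86) on log2(FPKM + 0.1) and 164 (84, 80) on log2(FPKM + 1). Wild-type libraries alone gave 163 (86, 77). The replicate block gave 803 (372, 431), 407 of them shared, and with wild-type libraries alone, a fit added after seeing the data, 65 (31, 34). Among the named genes the block added the calls of ALS3, FER1, SPX1 and GDH2 (GDH2 adjusted p = 0.0468), ended that of GSTU11 and changed no other. Leaving out single libraries gave 212 to 356 calls, 100 to 153 higher and 95 to 203 lower. No gene called here and also under one of these alternatives changed direction. Size factors of DESeq2 (414), no filter on low counts (370), removal of ribosomal RNA genes (411), leaving out the mutant libraries low in ribosomal RNA (499) and a minimum of 2-fold (293) kept the count within 1.5 times. With wild-type libraries alone, 89 named genes were tested, some of which had not passed in the main fit. Of those that had passed, 33 no longer did so, and 41 with the replicate block on wild-type libraries alone. Genes under about 0.1 CPM in a library could not be resolved at this depth.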

Other observations

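Several enzymes of primary metabolism, carriers and defence-related genes that belong to no list also changed in wild type, and they were named after their values were seen. AAH, which releases ammonia from allantoate, had 31.8, 28.9 and 33.7 CPM at 0 mM and 58.0, 62.4 and 74.8 CPM at 1.5 mM and rose by 1.05 ± 0.12 (edgeR, adjusted p = 0.000205). The sucrose synthase SUS3 rose by 1.15 ± 0.20 (adjusted p = 0.00687), the sulfate carrier SULTR3;5 by 0.83 ± 0.13 (adjusted p = 0.00298), the auxin carrier of the endoplasmic reticulum PILS5 by 0.82 ± 0.13 (adjusted p = 0.0029) and the glycosyltransferase UGT73B4 by 1.88 ± 0.33 (adjusted p = 0.00665). NAC003, a NAC-domain transcription factor, had 20.0, 19.3 and 12.9 CPM against 7.41, 7.55 and 5.04 CPM and fell by 1.38 ± 0.23 (adjusted p = 0.00358). The phloem lectin PP2-A6 had 1.55, 1.58 and 1.46 CPM against 0.332, 0.262 and 0.175 CPM and fell by 2.54 ± 0.38 (adjusted p = 0.00182). In each of these 7 genes the call held when any 1 of the 6 wild-type libraries was left out. UGT73B4 lies inside the annotated UGT73B5 on the same strand, and PILS5 overlaps a gene on the opposite strand, so the counts of both are uncertain.

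AOX2, an alternative oxidase of the respiratory chain, had 0 counts over the untreated libraries and 32 over the treated ones, at least 10.2-fold higher against a floor of 3 counts over the group. Its call (adjusted p = 0.0136) ended without the 0 mM library of replicate 3 (0.0515) or of replicate 4 (0.0551).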
